A study of Drosophila melanogaster with 3 samples.

Results

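Of 3216 gene symbols listed near a Bsh:Dam peak in at least 1 of 3 replicates, 94 had 4 or more peaks in each replicate, or 2.92%. These 94 genes were chosen by their number of peaks in the authors' gene lists, where a gene is listed once for every peak within 1 kb of it. Entries for single transcripts were left out. The peaks came from Targeted DamID of Bsh:Dam in L4 neurons of the Drosophila melanogaster lamina at 46–76 hr after pupa formation (APF), in 3 biological replicates of a single condition. Each replicate was read relative to Dam alone. All animals carried a ubiquitous temperature-sensitive Gal80, tubP-GAL80[ts], the driver 31C06-Gal4 with UAS-myristoylated-tdTomato, and the Bsh-TaDa transgene, in which UAS drives a GFP reading frame followed at low level by Bsh:Dam. The window of expression was set by a temperature shift, laminae of many pupae were pooled for a sample, and the endogenous bsh gene was not altered in the genotype given. Dam alone was not analysed here and the files used hold a single condition, so no contrast and no test was made.

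Bsh is a homeodomain transcription factor of lamina neurons. In DamID, the bacterial methylase Dam is fused to a DNA-binding protein and methylates adenine in nearby GATC sequences. Methylated fragments are amplified and counted, and the ratio to Dam alone takes account of how open the DNA is. A peak is therefore a run of GATC fragments and is wider than a binding site. It records where Bsh:Dam was close to DNA. It does not record whether the nearest gene is expressed or needs Bsh. Long genes of the nervous system often carry several enhancers in their introns, and a transcription factor may have several peaks in such a gene.

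The authors called 2834, 2838 and 2891 peaks in replicates 1, 2 and 3, separately in each replicate. The files hold no read counts, so the depth behind each peak is unknown. Each peak has a score, the value given to it by the authors' peak caller, and its derivation from the ratio to Dam is not given in the sources used here. Peak lists cannot show which cells were expressing a gene, so the loci of lamina marker genes are only described here. The L4 marker ap, which encodes a LIM-homeodomain factor, was listed with 4, 5 and 5 peaks. The bsh gene itself had 1, 0 and 0 peaks, and bab2, erm, pdm3, zfh1 and the glial gene repo had 0 in every replicate. The L1 marker svp had 2 peaks in each replicate and the pan-neuronal gene elav had 1. The highest scores of svp were 4.39, 4.31 and 3.94. They were above those of ap (4.19, 4.01 and 3.83) in every replicate. Bsh:Dam near a marker gene does not show whether the gene is expressed, so these loci cannot test the L4 label. The study itself reported, from staining, that the construct was expressed in Ap-positive L4 neurons.

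The 94 genes held 486, 495 and 504 lines of the gene lists in the 3 replicates, which came from 472, 481 and 488 separate peaks. Near these genes lay 16.7%, 16.9% and 16.9% of all peaks. The mean number of peaks per gene was 5.17, 5.27 and 5.36, or 5.27 ± 0.0957 (SD, n = 3 replicates), and the median was 5 in each replicate. Most genes were thus close to the minimum of 4 that chose them. Exactly 4 peaks in every replicate were found for 26 genes. At least 5 were found for 44 genes, at least 6 for 22, at least 7 for 10 and at least 10 for 3. By comparison, 77.1%, 76.5% and 77.6% of the symbols in each list had a single peak.

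Rbp6 had the most peaks, with 14, 14 and 13. Rbp6 encodes an RNA-binding protein related to Musashi. Mmp2, a matrix metalloproteinase, followed with 11, 10 and 10, and kirre, an immunoglobulin superfamily adhesion molecule, with 10, 10 and 11. These 3 genes stood apart from the others, which had no more than 9 peaks in any replicate. The nuclear receptor gene Eip75B had 7, 9 and 8 peaks, and Glut4EF, which encodes a DNA-binding protein, had 8, 9 and 7. CG43867 had 7, 8 and 9.

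**Figure D1:**
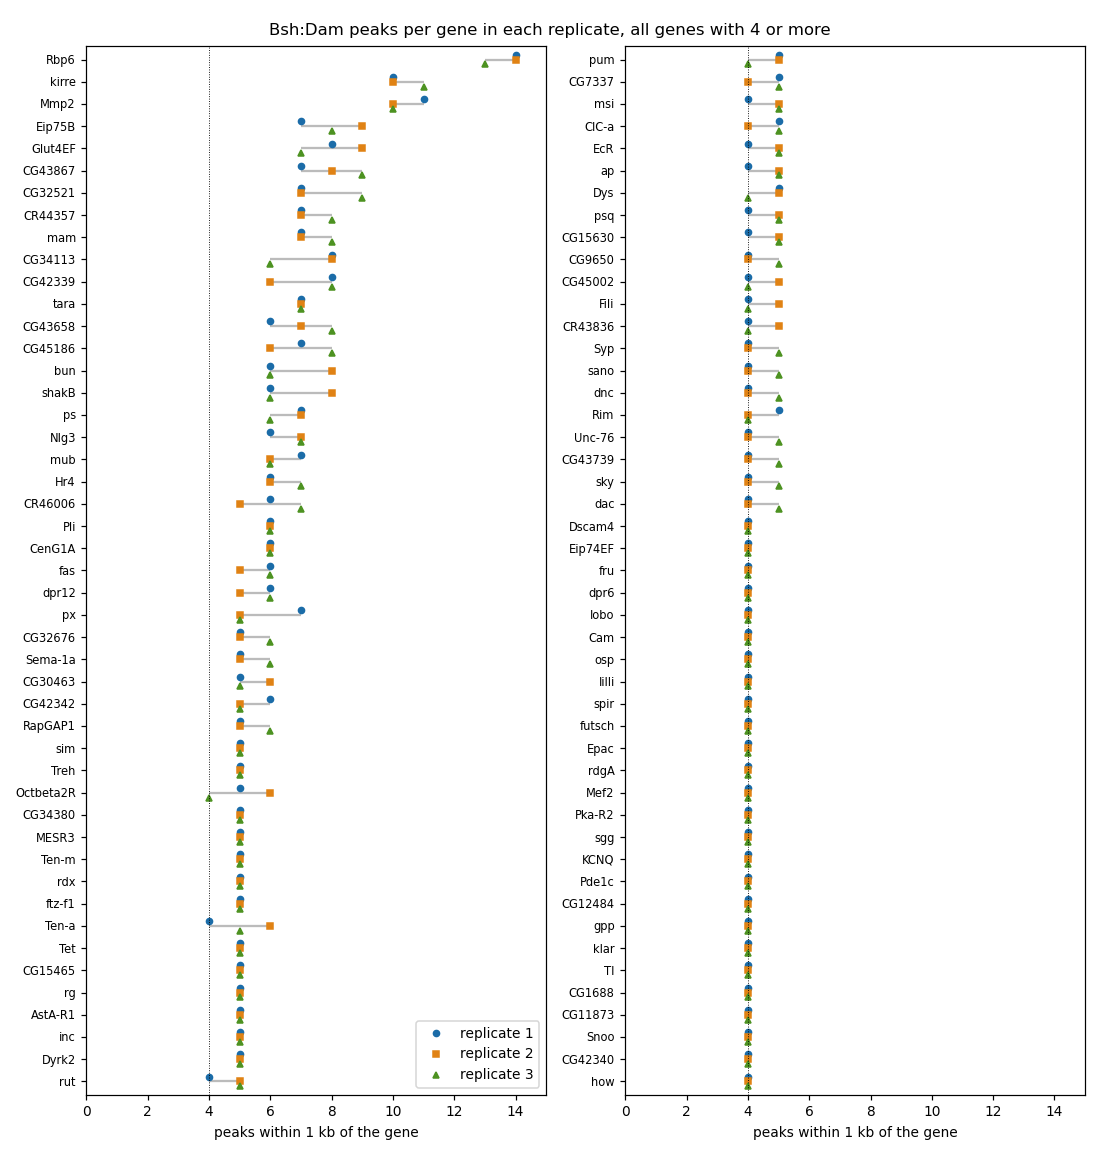
Number of peaks within 1 kb of each of the 94 genes (horizontal axis) in replicates 1, 2 and 3 (circle, square and triangle, drawn at slightly different heights), with a grey line over the range and a dotted line at 4. Only Rbp6, kirre and Mmp2 have 10 or more peaks in every replicate, and 26 genes have exactly 4.

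The choice depends on whole numbers of peaks, so many genes lay just outside it. There were 137 genes with 4 or more peaks in replicate 1 (4.97% of its symbols), 138 in replicate 2 (5.08%) and 131 in replicate 3 (4.65%). Of the genes left out, 46 had 4 or more peaks in exactly 2 replicates, and 41 of these had 3 in the other replicate. They included grn (5, 3 and 6 peaks), which encodes a GATA factor, 4EHP (3, 6 and 4), which encodes a cap-binding translational repressor, and jing (3, 5 and 5), which encodes a zinc finger protein. The potassium channel genes Sh and slo both had 3, 4 and 4 peaks. The receptor phosphatase gene Ptp99A had 5, 4 and 3, and lola, whose zinc finger isoforms act in axon guidance, had 4, 4 and 3. Just inside were the 26 genes with 4, 4 and 4 peaks, such as Dscam4, fru and KCNQ. A single peak in a single replicate separates these groups.

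To read the number of peaks in a replicate that took no part in the choice, genes were chosen in 2 replicates and counted in the replicate left out. Of 106 genes chosen without replicate 1, 94 (88.7%) had 4 or more peaks there. The share was 94 of 109 (86.2%) in replicate 2 and 94 of 113 (83.2%) in replicate 3, a mean of 86.0% ± 2.75 (SD, n = 3). Of all symbols in these replicates, 4.97%, 5.08% and 4.65% had as many. These are the same 94 genes each time, since they are those that pass in every replicate. Every gene chosen in this way was listed in the replicate left out, with at least 3, 2 and 2 peaks in replicates 1, 2 and 3.

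By what their products are known to do, 22 of the 94 genes encode transcription factors or chromatin proteins. They had between 4 and 9 peaks, with a mean of 5.20. Among them were 5 genes known from the ecdysone response, which were grouped after their values were seen and not from a full list of such genes. EcR, the ecdysone receptor, had 4, 5 and 5 peaks. Eip74EF, an ETS-domain factor induced by ecdysone, had 4 in each replicate, and the nuclear receptor genes Hr4 and ftz-f1 had 6, 6 and 7, and 5, 5 and 5. Eip75B, given above, is the remaining gene of the 5. Their highest scores differed. In Eip75B the highest score was 4.27, 4.51 and 4.55, in Eip74EF 4.26, 4.52 and 4.11, and in Hr4 3.33, 3.38 and 3.01. Hr4 was lower than both of the others in every replicate.

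By the mean of the highest score over the replicates, the first of all 94 genes was bun (4.64), which encodes a TSC-22 family regulator. Its strongest peak, chr2L:12471816-12473517, had the same borders and scores of 4.63, 4.65 and 4.65 in the 3 replicates. It had 6, 8 and 6 peaks, of which the next highest scored 3.88, 3.96 and 3.76 and the weakest 1.98, 1.85 and 1.85. In tara, which encodes a SERTA-domain regulator, the strongest peak (chr3R:16223757-16225079) scored 4.65, 4.52 and 4.59, while the other sites of tara scored 2.95 or less in every replicate. The step from the first to the next site was thus larger in tara than in bun in every replicate. The midline factor gene sim had 5 peaks in each replicate, led by a peak of 343 bp (chr3R:13060904-13061246) with 4.36, 4.57 and 4.39.

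The L4 gene ap had a site with 4.19, 4.01 and 3.83 and a second with 3.40, 3.95 and 3.46. Of its 5 sites, 4 were found in all replicates and the remaining site was absent from replicate 1. mam, which encodes the Notch coactivator Mastermind, had 7, 7 and 8 peaks and 7 sites in all replicates. The other genes of this kind were Mef2 (a MADS-box factor), dac (a retinal determination factor), fru and psq (BTB-domain factors), CG9650 (now Cph, a zinc finger factor), Snoo (a Ski family corepressor), lilli, gpp (a Dot1 family histone methyltransferase), Tet (a Tet family dioxygenase), CG11873 (now Bicra, a SWI/SNF complex subunit) and CG32676 (now stx). These 11 genes had between 4 and 6 peaks in every replicate, and by mean the highest score was lowest in dac of the whole group, with 3.01, 3.21 and 3.15.

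Genes for cell surface recognition numbered 13 and had a mean of 5.54 peaks. kirre was first with 12 sites, 9 of them in all replicates. Its strongest site was a peak of 383 bp, chrX:2770738-2771120, called with the same borders and with scores of 4.60, 4.50 and 4.47. The next site, chrX:2894930-2896617, scored 3.87, 3.91 and 4.15, and all the others scored 3.55 or less. CG34113, now side-III, belongs to the sidestep family of immunoglobulin proteins and had 8, 8 and 6 peaks with highest scores of 4.33, 3.89 and 3.80. Its relative CG12484, now side-VIII, had 4 in each replicate.

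dpr6 and dpr12 encode immunoglobulin proteins that bind the DIP proteins, and their patterns differed. dpr6 had 4 peaks in each replicate and the narrowest spread of scores of all 94 genes. Its sites scored 3.86, 3.75 and 3.41, then 3.96, 4.10 and 3.57, then 4.18, 4.29 and 3.83, and then 3.84, 3.98 and 3.69 in replicates 1, 2 and 3. All of its scores in replicate 3 were below those of the same site in both other replicates, and its 4 sites stayed within 0.34, 0.54 and 0.42 of each other. dpr12 had 6, 5 and 6 peaks, from 3.44, 3.54 and 3.41 down to 2.26, 2.49 and 1.76.

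The teneurin genes Ten-m and Ten-a encode large transmembrane proteins that match synaptic partners. Ten-m had 5 peaks in each replicate, and Ten-a had 4, 6 and 5 over 7 sites, of which 3 were found in all replicates. Ten-m had the same number throughout, and Ten-a was among the genes that varied most. Sema-1a, a transmembrane semaphorin gene, had 5, 5 and 6 peaks with highest scores of 4.19, 4.30 and 4.13. Dscam4 had 4 in each replicate with highest scores of 4.44, 4.31 and 4.17. The neuroligin gene Nlg3 was the reverse, with 6, 7 and 7 peaks and highest scores of only 3.0, 3.04 and 2.72. The other members were fas (now tei, an immunoglobulin protein gene, with 6, 5 and 6 peaks), CG15630 (now fipi, 4, 5 and 5) and Fili, a leucine-rich repeat protein gene (4, 5 and 4).

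RNA-binding proteins are encoded by 7 genes with a mean of 6.33 peaks. Rbp6 alone held 16 sites, of which 10 were found in all replicates. Its scores were moderate and its highest were 3.70, 3.72 and 3.59, so it led by number and not by height. The related gene msi (Musashi) had 4, 5 and 5 peaks and a highest score of 4.36, 3.85 and 4.13. The KH-domain protein genes ps and mub had 7, 7 and 6, and 7, 6 and 6 peaks. ps (pasilla) had a score above 2.5 at every peak, with 4.41, 4.38 and 4.27 at the top and 2.64, 2.65 and 3.28 at the bottom. In pum, which encodes the translational repressor Pumilio, peaks numbered 5, 5 and 4 and the highest score was 4.28, 4.28 and 4.47. Syp, which encodes a regulator of neuronal temporal identity, had 4, 4 and 5 peaks, all above 2.5. By contrast, how, a STAR family gene, had 4 peaks in each replicate and its highest scores of 2.73, 2.87 and 2.64 were the lowest of all 94 genes in every replicate.

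Another 7 genes act in cyclic nucleotide and calcium signalling and include rut and dnc, both first known from learning mutants. They had 4 or 5 peaks, with a mean of 4.29. The number was the same in every replicate in 5 of the 7, against 42 of all 94 genes (44.7%). Equal numbers are partly fixed by the minimum of 4 peaks. rut encodes the calcium-activated adenylyl cyclase and had 4, 5 and 5 peaks. Its strongest site, chrX:14813808-14814754, scored 4.52, 4.39 and 4.86, and the last of these was the highest score at any site of the 94 genes. The lowest site of rut scored 2.25, 2.10 and 2.07, so high and low sites lay side by side in this gene too. dnc, the cyclic AMP phosphodiesterase gene, had 4, 4 and 5 peaks with highest scores of 3.71, 3.59 and 3.62. Pka-R2 (a regulatory subunit of protein kinase A), Epac (an exchange factor activated by cyclic AMP), Pde1c (a phosphodiesterase) and Cam (calmodulin) had 4 in each replicate, and rg (an anchor of protein kinase A) had 5. The 4 sites of Cam had the same borders in all 3 replicates and scored between 2.61 and 4.15 over the 3 replicates.

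Other signalling genes numbered 10, and 9 of them had the same number of peaks in every replicate. Pli, which encodes the ubiquitin ligase Pellino, and CenG1A, an Arf GTPase activator gene, had 6 each. CG34380 (now smal, a discoidin domain receptor gene), rdx and inc (adaptors of Cullin ligases) and the kinase gene Dyrk2 had 5. sgg (glycogen synthase kinase), rdgA (diacylglycerol kinase) and Tl (the Toll receptor) had 4. RapGAP1, a GTPase activator gene, was the exception with 5, 5 and 6. Dyrk2 had only 2 peaks above 2.5 in each replicate, whereas Pli had 6, 5 and 6.

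Channels and receptors were 5 genes. shakB, which encodes a gap junction innexin, had 6, 8 and 6 peaks with a strongest site of 4.42, 4.46 and 4.31. The chloride channel gene ClC-a had 5, 4 and 5 and the potassium channel gene KCNQ had 4 in each replicate, and every peak of both scored above 2.5. The octopamine receptor gene Octbeta2R had 5, 6 and 4 peaks with a strongest site of 4.42, 4.16 and 4.34. The allatostatin receptor gene AstA-R1 had 5 in each replicate with highest scores of 3.33, 3.65 and 3.32. Only 2, 4 and 1 of the peaks of AstA-R1 exceeded 2.5.

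Synaptic and cytoskeletal proteins are encoded by 10 genes, with a mean of 4.53 peaks. Rim, which encodes a scaffold of the active zone, had 5, 4 and 4 peaks, and sky, which encodes a Rab GTPase activator of the synaptic vesicle cycle, had 4, 4 and 5. futsch, the gene of a microtubule-associated protein, had 4 in each replicate with scores between 3.13 and 4.02, all within 0.57, 0.68 and 0.67 of each other. spir (an actin nucleator) and osp also had 4 in each replicate, all above 2.5. CG45186, now Svil (supervillin), had more peaks, 7, 6 and 8, but its highest scores were 2.93, 3.25 and 2.78. The remaining genes were Unc-76 (a kinesin adaptor, 4, 4 and 5), klar (nuclear positioning, 4 in each), Dys (dystrophin, 5, 5 and 4) and CG7337 (now Wdr62, 5, 4 and 5).

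Enzymes outside signalling were Mmp2, Treh and CG30463. Treh encodes trehalase, which splits the main sugar of insect blood. It had 5 peaks in each replicate, all above 2.5, and its strongest site scored 4.36, 4.33 and 4.32. CG30463, now Pgant9, encodes a glycosyltransferase and had 5, 6 and 5. Mmp2 had 10 of its 11 sites in all replicates, with scores between 1.73 and 3.77, so low sites as well as high ones were found in each replicate.

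Non-coding RNA genes were CR43836 (4, 5 and 4 peaks), CR44357 (7, 7 and 8) and CR46006 (6, 5 and 7). The highest scores of CR46006 were 4.67, 4.59 and 4.11. A further 14 genes were not assigned to a role here. Among these were CG32521 (now Mnr) with 7, 7 and 9 peaks, CG42339 (now vex) with 8, 6 and 8, CG43658 with 6, 7 and 8, CG43867, and px with 7, 5 and 5. The other 9 were CG15465, CG1688, CG42340, CG42342, CG43739, CG45002, MESR3, lobo and sano, with 4 to 6 peaks.

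The same genes were also set against broad lists of gene functions that include genes with fewer peaks. Of 32 listed symbols for RNA-binding proteins and translation, 7 (21.9%) were among the 94, and of 61 for transcription factors and chromatin regulators, 13 (21.3%). The share was 10 of 85 (11.8%) for adhesion, recognition and axon guidance and 5 of 57 (8.77%) for cytoskeleton, trafficking and vesicle release. It was 3 of 46 (6.52%) for ion channels and transporters, 7 of 109 (6.42%) for signalling, and 2 of 44 (4.55%) for transmitter and peptide receptors and peptides. Of 2782 listed symbols in none of the lists, 47 (1.69%) were among the 94, against 2.92% of all symbols. The lists are incomplete. Of the 22 genes grouped above as transcription factors or chromatin proteins, only 13 are in that list. Genes such as ftz-f1, sim and Cam are in none, so the 1.69% is not a share for genes without these functions. The lists differ in gene length, which was not taken into account in these shares. Some symbols were moved between or into the lists after the names of the 94 genes were seen.

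Scores within a single gene covered a wide range. In the median gene the highest score was 3.88, 3.87 and 3.75 in the 3 replicates and the lowest 2.32, 2.31 and 2.08. The difference between highest and lowest was 1.52, 1.45 and 1.60, or 1.52 ± 0.0751 (SD, n = 3). The median SD of scores within a gene was 0.60, 0.607 and 0.627. For comparison, the score of a site had a median SD of 0.163 over the replicates. By these medians the sites of a gene differed more from each other than a site did between replicates. The medians rest on different sets of sites. Of 533 sites, the 53 found in a single replicate have no SD over the replicates but count within their genes.

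The widest mean ranges were found in bun (2.75), Eip75B (2.68), tara (2.58), rut (2.45) and kirre (2.42). The narrowest were found in dpr6 (0.43), futsch (0.64), CG45186 (0.64), how (0.69) and Nlg3 (0.71). A range tends to widen with the number of peaks, which was not taken into account. Peaks numbered 6 or more in every replicate in bun, Eip75B, tara and kirre, and 4 in dpr6, futsch and how. The reverse held for rut, with 4, 5 and 5, and for CG45186 and Nlg3, with 6 or more. Narrow ranges occurred at both ends of the scale. dpr6 and futsch held only peaks above 2.5, while the highest mean score in how was 2.75.

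**Figure D2:**
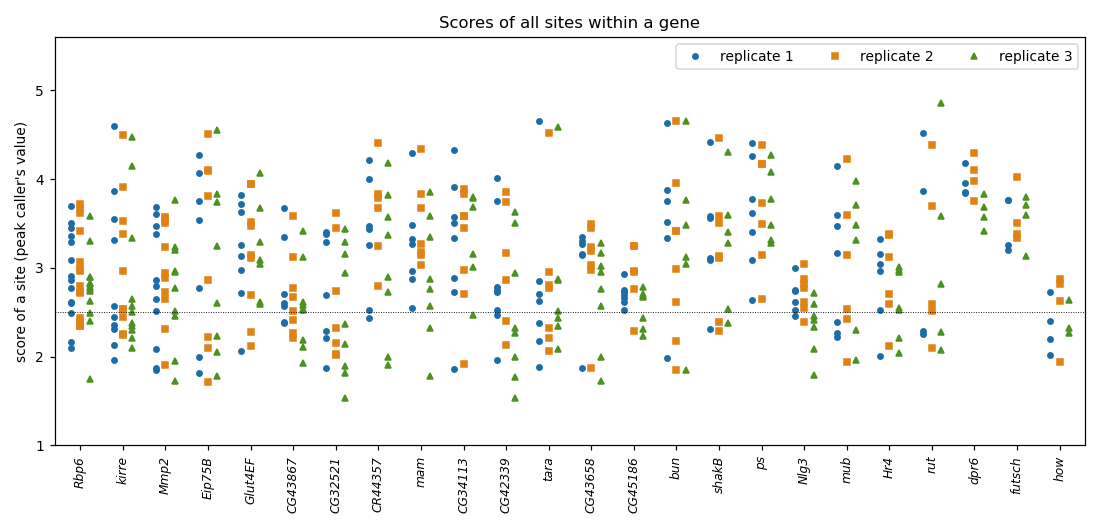
Scores of all sites (vertical axis, value of the peak caller) in the 20 genes with most peaks and in rut, dpr6, futsch and how, by replicate, with a dotted line at 2.5. bun and Eip75B spread over more than 2.4 units in every replicate, and dpr6 over less than 0.6.

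Measured over single peaks, the 94 genes had median scores of 3.0, 3.07 and 2.82, and all other peaks had 2.98, 3.08 and 2.77. Peaks near the 94 genes were therefore close in height to the rest. Above 2.5, the gene threshold used by the study, were 77.5%, 79.4% and 69.1% of the peaks of these genes and 75.3%, 79.3% and 64.1% of all others. Median lengths were 1712, 1808 and 1682 bp against 1563, 1614 and 1491 bp. Every one of the 94 genes had a highest score above 2.5 in each replicate, and 44 had 4 or more peaks above 2.5 in each. All peaks in every replicate were above 2.5 in 14 genes, namely CG7337, Cam, ClC-a, KCNQ, Syp, Treh, dpr6, ftz-f1, futsch, lilli, osp, ps, pum and spir. AstA-R1, CG11873, Tl and how had fewer than 2 such peaks in at least 1 replicate.

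Agreement between replicates was read from peak positions, after overlapping peaks of the 3 replicates had been merged into sites. The number of peaks was the same in all replicates in 42 genes (44.7%), differed by 1 in 38 and by 2 in 14. The 14 genes were CG32521, CG34113, CG42339, CG43658, CG43867, CG45186, CR46006, Eip75B, Glut4EF, Octbeta2R, Ten-a, bun, px and shakB. Agreement of numbers, here and in the role groups above, was partly fixed by the choice, which asked for at least 4 peaks in every replicate. Of the 42 genes with equal numbers, 26 had exactly 4 throughout. All 52 genes with unequal numbers had a site that was missing in some replicate. Equal numbers did not always mean equal sites, since 8 of the 42 genes also had a missing site. In tara, which had 7 peaks throughout, a site was found only in replicate 3 and another was missing there.

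Of 533 sites near the 94 genes, 423 (79.4%) were found in all replicates, 57 (10.7%) in 2 and 53 (9.94%) in a single replicate. Of 2806 other sites these shares were 69.2%, 14.7% and 16.1%. The choice of genes asked for peaks in every replicate and so favoured sites found in all of them. By single peaks, 89.6%, 87.9% and 87.1% of the peaks near the 94 genes overlapped a peak of both other replicates, against 83.6%, 83.4% and 81.9% of all peaks. In 85 genes at least 4 sites were found in all replicates. In CG42340, Mef2, Rim, Snoo, Ten-a, dac, how, klar and sano fewer were, so that different sites made up the 4 peaks in different replicates, or 1 site held more than 1 peak.

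Sites missing in a replicate had lower scores. The highest score of a site had a median of 3.29 for sites in all replicates, 2.44 for sites in 2 and 2.21 for sites in 1. A score above 2.5 was reached by 371 of 423, 24 of 57 and 17 of 53 sites. Both measures take the highest of more scores where a site is found in more replicates, so part of this order is built in. Some sites of a single replicate were still high, with the highest at 3.65. Sites found only in replicate 1 numbered 7, only in replicate 2 16 and only in replicate 3 30, and sites missing only in replicates 1, 2 and 3 numbered 15, 18 and 24. Replicate 3 thus had the most sites of its own and the most missing, as well as the lowest median score of these peaks, and whether these go together was not tested.

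**Figure D3:**
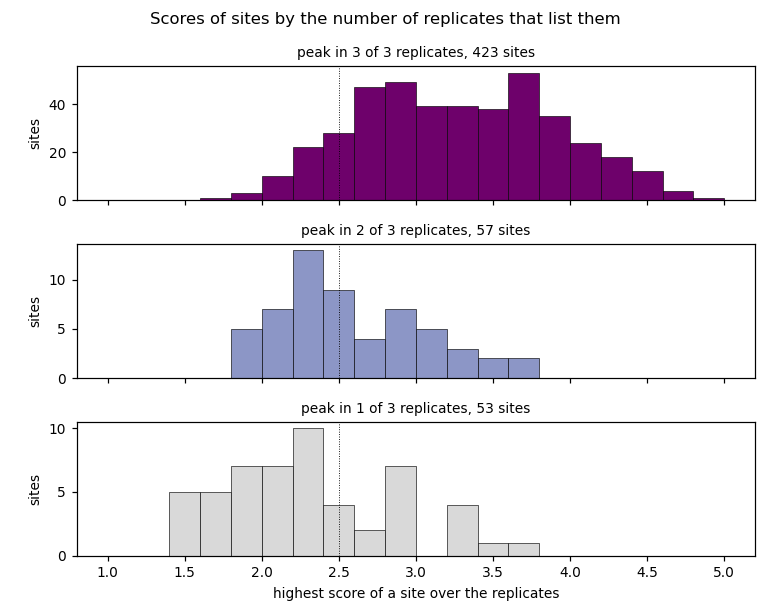
Numbers of sites near the 94 genes (vertical axes, with different scales) by the highest score over the replicates (horizontal axis), for sites found in 3, 2 and 1 replicates, with a dotted line at 2.5. Most of the 423 sites in 3 replicates lie to the right of the line, and most of the 57 and 53 other sites to the left.

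Over the 418 sites with 1 peak in each replicate, scores were close between replicates. Pearson's r was 0.947 for replicates 1 and 2, 0.911 for 1 and 3 and 0.902 for 2 and 3, with Spearman's rho of 0.945, 0.910 and 0.897. These are correlations over sites, which are not independent of each other, and the ratios to Dam may share Dam libraries. In 177 of these sites (42.3%) the borders were identical in all replicates, and in 43.2% of 1926 other sites. The highest-scoring site was the same in all replicates in 67 genes (71.3%), including bun, tara, kirre, rut and Eip75B, while the lowest was the same in 39. In Rbp6, Mmp2 and Glut4EF the highest-scoring site differed between replicates. In Mmp2 these were neighbouring sites that scored 3.61, 3.55 and 3.77 and 3.69, 3.57 and 3.20.

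A site was paired with a gene only inside its span or within 1 kb of it, so in genes of this length most pairs had to lie inside. Of 549 pairs of a gene and a site, 516 (94.0%) were inside the gene span, 26 (4.74%) crossed its border and 7 (1.28%) lay outside. No other gene was within 1 kb of the site in 402 pairs (73.2%), and another protein-coding gene was in 107 (19.5%). In 74 genes at least 4 sites were near no other protein-coding gene. In CG15465, CG43739, CR43836, CR44357, Glut4EF, rg and sky, every site also lay near another protein-coding gene, so their peaks cannot be credited to 1 gene. CG15465 and rg have the same span and share 5 sites, as do CG43739 and sky. All 5 sites of CG9650 were among the 8 of CR44357, and CR43836 and rdgA shared 1. The 94 genes thus held 92 different spans, some of which overlap.

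Counting only the sites found in all 3 replicates, neighbouring sites of a gene were a median of 8.82 kb apart from centre to centre (25th percentile 4.95 kb, 75th percentile 16.2 kb, 343 distances), and 25.4% were under 5 kb. From the first to the last of these sites the median gene extended over 39.3 kb. The sites of these genes were spread out in some and packed in others. In Unc-76, dac and ClC-a, peaks covered a mean of 45.6%, 44.6% and 43.0% of the gene span, while in dpr6 they covered 1.99%. The median was 16.6%, 16.1% and 15.5% in the 3 replicates.

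**Figure D4:**
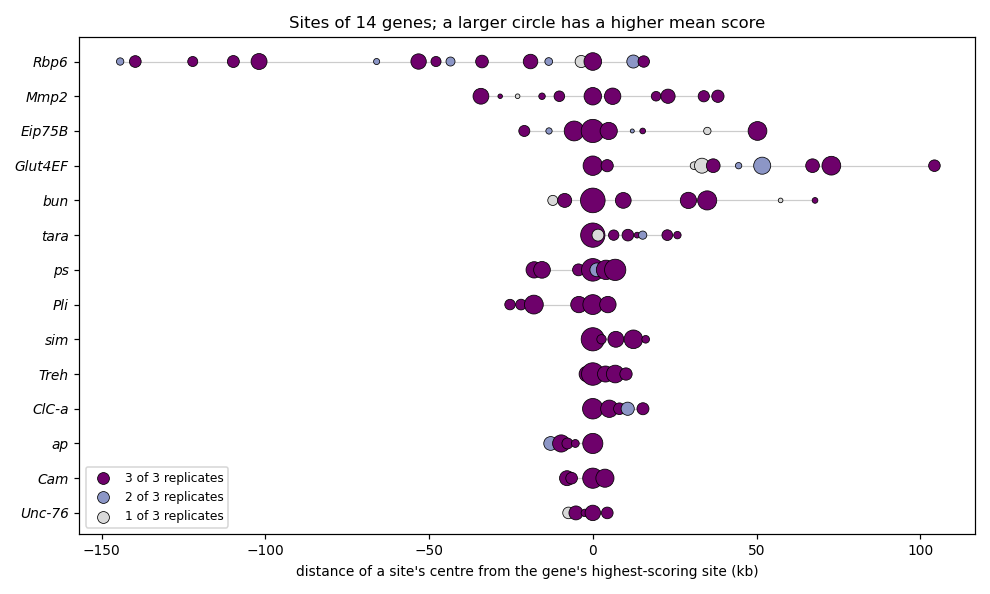
Sites of 14 genes by the distance of their centre from the highest-scoring site of the gene (horizontal axis, kb), with larger circles for higher mean scores and colours for sites found in 3, 2 or 1 replicates. Rbp6 holds 16 sites over a long stretch, and Cam and Treh hold 4 and 5 sites close together, all found in 3 replicates.

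Gene length took no part in the choice, but a long gene has more room for peaks. The 94 genes had a median length of 66.9 kb, from 13.3 kb (Unc-76) to 394 kb (kirre), against 4.35 kb for the other listed symbols. The median was 2.98 kb for other symbols whose highest number of peaks in any replicate was 1, 15.6 kb where it was 2 and 26.8 kb where it was 3. Peaks were also counted by position for all annotated protein-coding genes, which adds CG46467 (114 kb), a gene overlapping Glut4EF that the gene lists do not name. Of genes of 10 to 20 kb, 5 of 964 (0.519%) had 4 or more peaks in every replicate. The share was 14 of 551 (2.54%) for 20 to 40 kb, 23 of 231 (9.96%) for 40 to 60 kb, 25 of 147 (17.0%) for 60 to 100 kb and 23 of 73 (31.5%) for 100 to 200 kb. In this last class, 18 genes (24.7%) had 0 peaks in every replicate. The share did not rise further in the 7 genes of 200 to 400 kb. Of these, 2 (28.6%) had 4 or more peaks in every replicate and 4 (57.1%) had 0. Without read counts, 0 peaks does not show that Bsh was absent.

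Among the 94 genes themselves length and number of peaks were loosely related, with Pearson's r of 0.409 and Spearman's rho of 0.287 over 94 genes that share peaks and libraries. The choice left out genes with fewer than 4 peaks, and 26 of the 94 had exactly 4 in every replicate. These values therefore do not describe length and number of peaks over all genes. The median density was 0.838, 0.836 and 0.839 peaks per 10 kb, against 0.515, 0.515 and 0.514 for 703 other symbols that were listed in every replicate and were at least as long as the shortest of the 94. Since the 94 genes were selected on their number of peaks, this difference is a description of the choice.

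The choice asked for at least 4 peaks, so short genes had to be dense, and the order by density partly reflects gene length. Peaks within 1 kb outside a gene were counted, while its length was the span alone. Densest was Treh, with 5 peaks in 14.9 kb (3.35 per 10 kb), followed by Unc-76 (3.25 in 13.3 kb), ClC-a (2.92) and sim (2.45 in 20.4 kb). dac (2.22), ap (2.19), Cam (2.06), tara (2.02) and Pli (2.01) also had more than 2 peaks per 10 kb. Sparsest were Ten-a (0.172 in 292 kb), dpr6 (0.243 in 165 kb), dnc (0.259 in 167 kb), kirre (0.262 in 394 kb) and pum (0.272 in 171 kb). The gene kirre was therefore among the first by number and among the last by density. Rbp6, with 0.762 peaks per 10 kb in 179 kb, lay near the median.

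**Figure D5:**
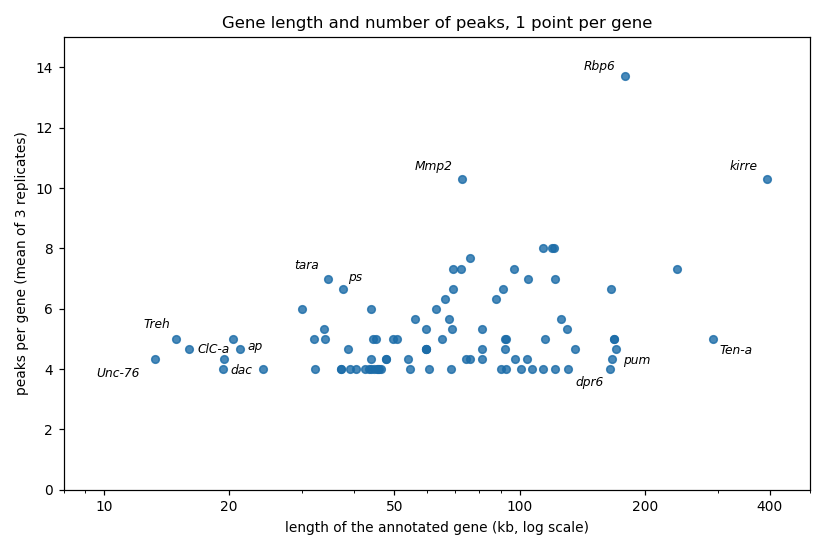
Mean number of peaks over 3 replicates (vertical axis) by length of the annotated gene (horizontal axis, kb, log scale), with 1 point for each of the 94 genes. Treh, Unc-76 and ClC-a reach 4 to 5 peaks in under 20 kb, and Ten-a has a mean of 5.00 in 292 kb.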

How the data were processed

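Targeted DamID with Bsh:Dam was done on 3 biological replicates of L4 neurons. The authors ran the damidseq pipeline and computed log2 (Bsh:Dam/Dam) for each. From these ratios, find_peaks (FDR < 0.01; min_quant = 0.9) called peaks in each replicate on its own, and peaks2genes listed the genes within 1 kb. The submitters' processing notes name FastQC 0.11.9. The genome build is not given in the sources used here. The deposited files give a score for each peak and for each line of a gene list, and an FDR that was used only for an alternative. They hold no read counts, so depth is unknown and no interval is given for a peak. A binomial interval was computed only for the share of genes with equal numbers, as its tolerance among the alternatives. Dam libraries were not analysed here.

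Lines were counted by symbol with Python 3.11.15. Peaks that overlapped by at least 1 bp were merged into sites, also in Python. Correlations were computed with scipy 1.17.1 and plots drawn with matplotlib 3.10.9 and numpy 2.4.6. RefSeq (Release 6 plus ISO1 MT) gave gene spans and names, and 77 of the 94 genes had current symbols and 17 older ones. In each replicate the lines of all 94 genes equalled the peaks within 1 kb of these spans, so the spans were used for lengths and overlaps, without printing their positions. The older symbol fas, which is a synonym of more than 1 gene, was assigned to tei by its scores. Neither exons nor sequences were used. Scripts were tested on simulated data.

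The genes and lists were chosen with earlier results of these data known. 4 symbols were moved between or into lists, and the 10 role groups were written, after the names of the 94 genes were seen. Any of the 94 genes could be named. Those with most peaks, the widest and narrowest scores, the most unequal numbers and the genes just outside were given in detail. Other genes named were chosen after their values were seen. Alternatives were 3 or 5 peaks, a score above 2.5, an overlap of 50%, an FDR below 0.001, gene spans in place of the lists, merged symbols, and each replicate left out.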

Additional observations from a re-analysis of the deposited data

How the results depend on the processing

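Of 30 alternative values, 12 stayed within the spread or tolerance of the main value and 18 moved. With 3 peaks as the minimum 206 genes were chosen, with 5 peaks 44, and with 4 peaks scored above 2.5 also 44, all among the 94. Counting peaks by position, or merging symbols, gave 95. Without any 1 replicate 106 to 113 genes were chosen. Peaks scored above 2.5 numbered 3.98 per gene and had a median range of 1.0 within a gene, and their median density was 0.568 per 10 kb. Leaving out a replicate gave 5.22 to 5.31 peaks per gene and ranges of 1.48 to 1.56. It raised the share of genes with equal numbers to between 56.4% and 67.0%, since fewer replicates had to be equal. For the same reason the share of peaks overlapping the other replicates became 90.8% to 93.9%, from 88.2%. This share was 78.4% for an overlap of 50%, 82.7% for scores above 2.5 and 83.4% for an FDR below 0.001. With 1 kb added on either side of a gene the density was 0.809. For minimums of 3 and 5 peaks, the mean share of genes that passed in the replicate left out was 92.9% and 89.3%. No paired analysis was possible because the samples used form a single group. The depth behind a peak is unknown.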

Other observations

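Several of the longest protein-coding genes had no peak called. Without read counts it is unknown how well these genes were covered by reads, so 0 peaks does not show that Bsh was absent. Myo81F (1966 kb), Pzl (709 kb), lovit (434 kb), CG17684 (396 kb), DIP-lambda (379 kb) and Snap25 (225 kb) had 0 peaks in every replicate, while bru3 (281 kb) had 3, 2 and 2.

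By chromosome, 24 of the 94 genes (25.5%) lay on X, which held 17.0% of all listed symbols, and 22 (23.4%) on 3R, which held 26.0%. On 2R lay 19, on 2L 17, on 3L 12, and on chromosome 4 none, where only 24 symbols were listed. Genes that share sites are counted separately here. Among these are CG15465 and rg, and CG9650 and CR44357, all on X, and CG43739 and sky on 2L. Gene length was not taken into account.

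CG46467, a protein-coding gene of 114 kb that overlaps Glut4EF, had 8, 9 and 7 peaks within 1 kb of its span and is not named in the gene lists. The same numbers were listed for Glut4EF.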
